A study of Homo sapiens with 6 samples.

Results

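The genes described here encode the initiation and elongation factors of cytosolic translation. They were chosen by name: every protein-coding gene whose symbol begins with EIF1 to EIF6, EEF1 or EEF2, leaving out the EIF2AK kinases. The rule found 67 of the 58735 genes in the table. The cells were MDA-MB-231, an established human line of triple-negative breast cancer, of wild-type genotype by the labels. For 24 h, 3 samples received vehicle and 3 received SCH, an aqueous extract of *Salvia chinensis* Benth, at 100 mg/l. Each group shared the same line and medium, which the labels give as RPMI-1640 and the study's methods as DMEM. The samples of a group were described as biological repeats of this single line, so p-values measure the spread between such cultures and not between tumors. The total counts were 20291379, 18714240 and 18334857 in the vehicle samples and 16836369, 17979434 and 18414924 in the SCH samples.

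Initiation factors bring the small ribosomal subunit and the initiator tRNA to the capped end of an mRNA, find the start codon and release themselves when the large subunit joins. Elongation factors then deliver each aminoacyl-tRNA and move the ribosome along by a codon at a time. Many mRNAs of this machinery, and nearly all of those for ribosomal proteins, begin with a cytosine and a run of pyrimidines, the 5′ terminal oligopyrimidine tract (TOP). Their translation is known to depend on the kinase complex mTORC1.

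The line was checked against its markers before the factors were examined. In normalized CPM (each count relative to the library total, after TMM normalization), the mesenchymal and basal markers VIM, CD44 and EGFR lay between 428.3 and 1433 in all samples. The estrogen receptor gene ESR1, the progesterone receptor gene PGR and the epithelial cadherin gene CDH1 were at most 0.337 CPM, whereas the epithelial EPCAM lay between 10.9 and 17.8 CPM. Among the 5 markers of other cells, DCN was at 0 in every sample and LUM, VWF and PECAM1 reached at most 1.58 CPM. The blood cell marker PTPRC was at 2.0, 2.06 and 1.91 CPM with vehicle and at 0.229, 0.483 and 0.158 CPM with SCH, and the endothelial VWF went from 0.205, 0.334 and 0.394 CPM to 0, 0.107 and 0.0526 CPM. Their part in the results below was not tested.

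After SCH, the mRNAs of most initiation and elongation factors were modestly lower. Of the 67 genes, 61 passed the filter on low counts, and 48 of these changed in edgeR's quasi-likelihood test (adjusted p under 0.05, Benjamini-Hochberg over 14736 genes), 43 lowered and 5 raised. Among all tested genes 58.7% changed, 29.4% lowered and 29.3% raised, against 78.7%, 70.5% and 8.20% of the tested factor genes. Their median log2 fold change (SCH minus vehicle) was -0.27, where that of all tested genes was -0.0034. The changes were small in size. An absolute log2 fold change of at least 0.5 was reached by 11 changed factor genes (18%), below the 26.8% of all tested genes. In 47 of the 61 (77.0%), the 3 SCH samples did not overlap the 3 vehicle samples, against 62.4% of all tested genes. Among the better measured genes (mean count 300 or more, a limit chosen after seeing the data), 38 of 51 factor genes were lowered and 5 raised, where 33.2% of all such genes were lowered and 34.8% raised. When only library size was used for scaling, the median of all tested genes moved up to 0.0993 and that of the factor genes to -0.17, with 34 lowered and 9 raised.

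The shift was present in each SCH sample. The median over the factor genes, as log2 of the sample's CPM over the vehicle mean, was 0.0062, -0.0035 and -0.0021 in the vehicle samples and -0.29, -0.31 and -0.27 in the SCH samples, with a pooled SD of 0.0138. As a share of all counts, the factor genes held 2.66%, 2.66% and 2.64% with vehicle and 2.23%, 2.27% and 2.31% with SCH. EEF1A1 alone made up 40.6% ± 0.0721 (SD, n = 3) of those counts with vehicle and 37.0% ± 1.15 with SCH. Without it, the share was 1.58% ± 0.00751 and 1.43% ± 0.00666. In RNA from whole cultures, fewer cells of a kind and less RNA per cell cannot be told apart, and shares say nothing of the amount of RNA in a cell.

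**Figure D1:**
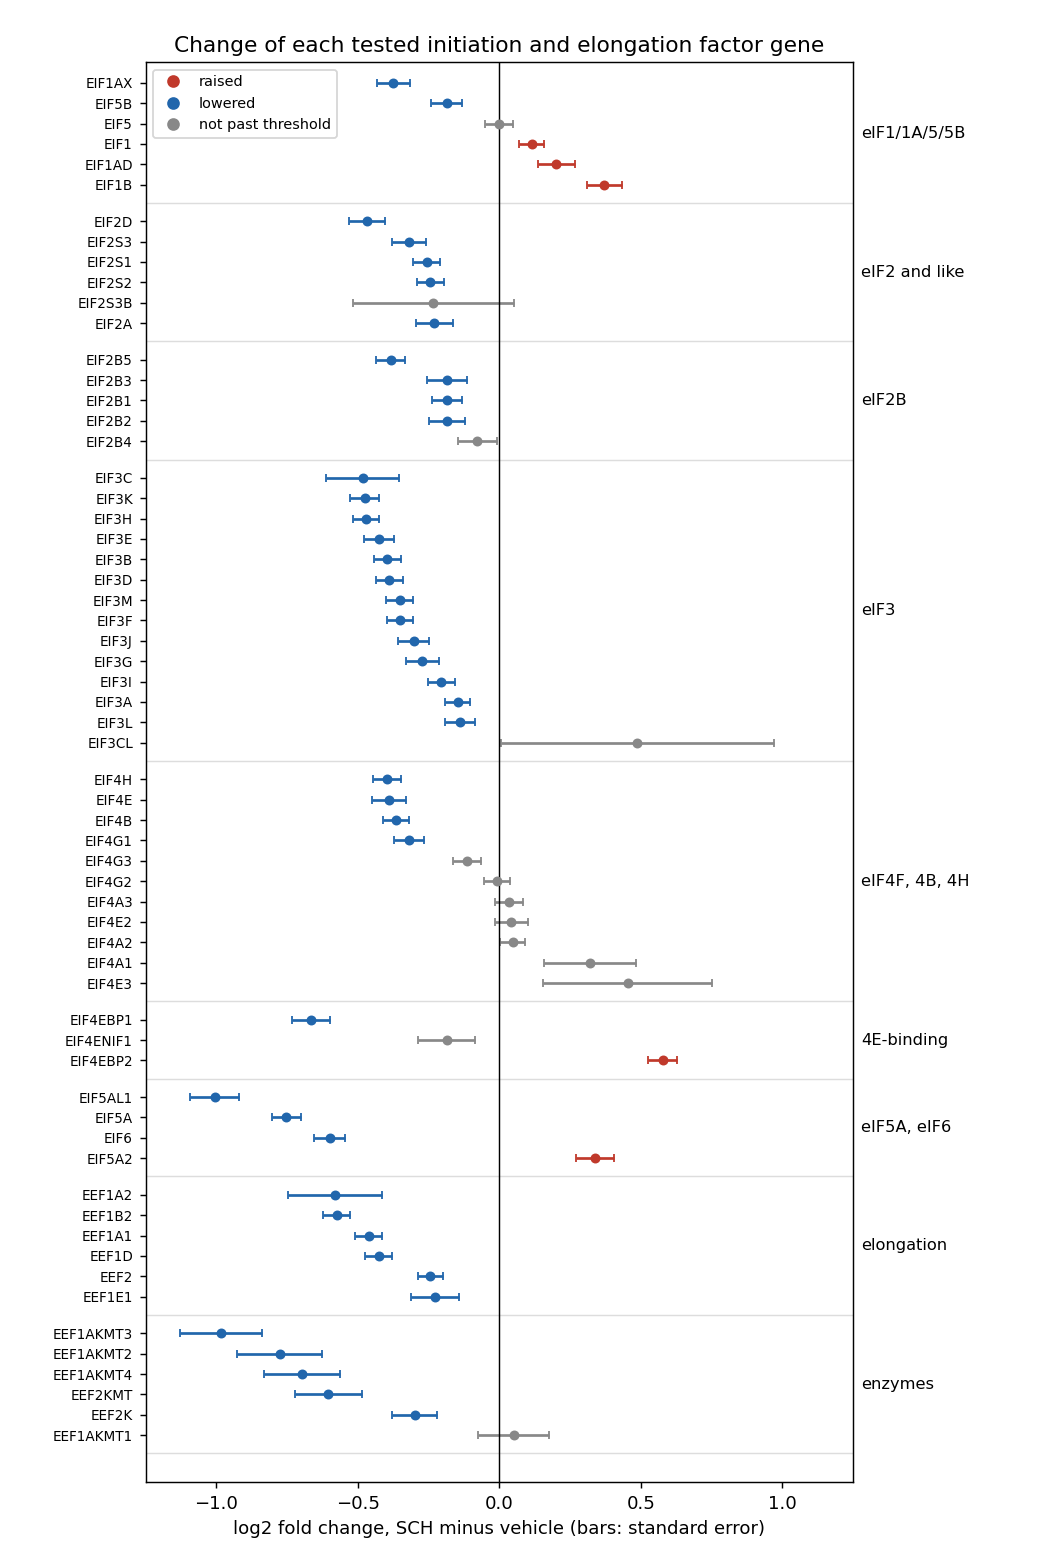
Log2 fold change (x axis, SCH minus vehicle) of the 61 tested factor genes, by role, with standard errors as bars and colors for genes lowered, raised or not past the threshold at adjusted p under 0.05. Points to the left of 0 dominate, with 43 genes lowered, and the 5 raised genes lie in the start codon, 4E-binding and eIF5A groups.

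Some mRNAs of this machinery begin with a pyrimidine run, and the first bases of several lowered genes with such a run are shown as examples. RefSeq windows (GRCh38.p14, which can place a start elsewhere than the deposited gene table) were at hand for 54 of the 67 genes. Each window below runs 5′ to 3′ from 20 bases before the annotated start through the first 10 transcribed bases, and capitals mark the unbroken run of C and T that begins with a C at the start. EEF1A1 is at chr6:73521023-73521052 (minus strand), EEF2 at chr19:3985454-3985483 (minus), EEF1B2 at chr2:206159875-206159904 (plus), EIF4B at chr12:53006436-53006465 (plus), EIF3F at chr11:7987317-7987346 (plus) and EIF2S3 at chrX:24054936-24054965 (plus).
EEF1A1: cagtagtcgccgtgaacgttCTTTTTCgca
EEF2: tgagtgttgacgtcagcgttCTCTTCCgcc
EEF1B2: attttccggtctcttcgggtCCTTTTTCCT
EIF4B: cgtgattgcctcatccgggtCTTTTgcgtt
EIF3F: gtcatttccgcttccgcctcCTTCTTTCTC
EIF2S3: cagccggggtgatttccttcCTCTTTTggc

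For contrast, the windows of 3 raised genes held no such run, and neither did those of 21 lowered factor genes, which are not shown. A run was found in 11 lowered factor genes. EIF4A2 and EIF2S3B, also not shown, had a run and did not pass the threshold. The 3 raised genes are EIF4EBP2 at chr10:70404125-70404154 (plus), EIF1B at chr3:40309687-40309716 (plus) and EIF5A2 at chr3:170908628-170908657 (minus).
EIF4EBP2: tctggctcccgccttcgcccgcttccggtc
EIF1B: ctccatcggccattttgtgcgagaagccgc
EIF5A2: gcggccccgccccgtctcttggaactgccg

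A start of C followed by at least 4 further C or T, at any of a gene's RefSeq starts, was found in 13 of the 54 factor genes with a window (24.1%), against 1404 of 27305 genes with a window (5.14%). The 27305 genes include many that were not tested here, whereas most factor genes were tested. Among tested genes, 13 factor genes had such a start and 35 another, against 760 and 9591 of all genes. The rule for the start was written after the sequences had been seen. The 13 genes were EEF1A1, EEF1B2, EEF2, EIF2A, EIF2D, EIF2S3, EIF2S3B, EIF3D, EIF3F, EIF3K, EIF3M, EIF4A2 and EIF4B. Of these, 11 were lowered and none raised, with a median log2 fold change of -0.35, and EIF4A2 and EIF2S3B did not pass the threshold. The 35 tested factor genes with another start had 21 lowered, 5 raised and a median of -0.19. Over all 760 tested genes with such a start, 297 were lowered and 171 raised, with a median of -0.0803. Leaving out factor and ribosomal protein genes, 243 of 700 were lowered and 171 raised, with a median of -0.0492. The 9591 tested genes with another start had a median of 0.0186. The median shift of genes with such a start was thus nearer to 0 in genes other than factor and ribosomal protein genes than among the factor genes, a difference that was not tested.

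The list of factor mRNAs known as TOP mRNAs, taken from general knowledge, gave 9 tested genes, all lowered, with a median of -0.43. The 52 other tested factor genes had 34 lowered, 5 raised and a median of -0.23, where 29.4% of all tested genes were lowered and 29.3% raised. Other motifs were also searched for on both strands of windows from 250 bases before to 50 after the start. The E-box CACGTG was in 14 of the 54 genes (25.9%) against 8.77% of all genes with a window, and the ETS motif CCGGAAGT in 10 (18.5%) against 4.95%. CCAAT was in 25 (46.3%) against 39.7%, and the C/EBP-ATF element TGATGNAAN was in EIF4E3 alone (1.85%) against 4.45%. Genes were counted one by one, so that the read-through genes EEF1AKMT4-ECE2 and EEF1E1-BLOC1S5 repeat all or part of the window of EEF1AKMT4 and EEF1E1. Both EEF1AKMT4 genes are among the 14 with the E-box and both pairs among the 25 with CCAAT. All genes with a window again include many that were not tested, so these shares rest on unlike sets. Such matches describe letters in a window and not binding.

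**Figure D2:**
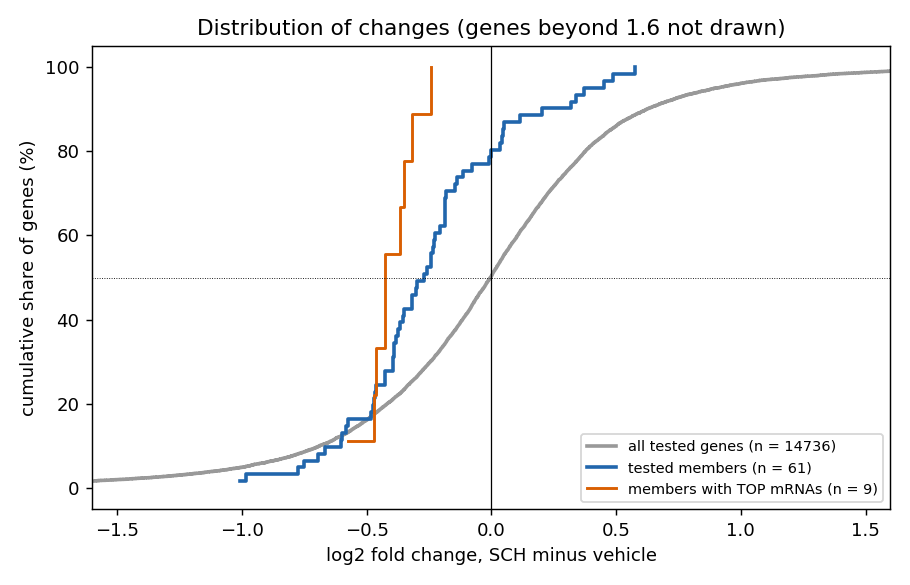
Cumulative share of genes (y axis, %) by log2 fold change (x axis, SCH minus vehicle) for all 14736 tested genes, the 61 tested factor genes and the 9 tested factor genes with TOP mRNAs. The curve of the factor genes crosses 50% at -0.27 and that of the TOP mRNAs at -0.43, while the factor genes hold few changes beyond 0.5 in either direction.

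The factors that recognize the start codon and join the subunits were split in direction, with 3 of 6 tested genes raised and 2 lowered (29.3% and 29.4% of all tested genes). EIF1, which guards the accuracy of start codon selection, was at 806, 818 and 830 CPM with vehicle and 850.1, 892 and 914 CPM with SCH. The groups lay apart by a small margin, and the log2 fold change was 0.11 ± 0.05 (SE, edgeR adjusted p = 0.0348). The call was lost without vehicle replicate 1 (edgeR adjusted p = 0.123) or 2 (0.0722) and without SCH replicate 2 (0.0881) or 3 (0.0923). It was also lost with upper quartile scaling (0.133) and with the replicate number as a block. Its paralog EIF1B rose more, from 51.4, 50.7 and 50.9 CPM to 62.2, 64.8 and 70.9 CPM. Every SCH sample was above every vehicle sample (log2 fold change 0.37 ± 0.06, edgeR adjusted p = 1.86e-05). EIF1AD, a gene with an eIF1A domain, was at 36.7, 40.8 and 38.3 CPM with vehicle and at 44.2, 43.6 and 45.3 CPM with SCH. Its rise of 0.20 ± 0.07 on the log2 scale (edgeR adjusted p = 0.0111) was not called without vehicle replicate 1 (adjusted p = 0.0654). EIF1AX, which encodes eIF1A, went the other way, with 112, 110.4 and 126 CPM against 92.5, 84.8 and 90.8 CPM (log2 fold change -0.37 ± 0.06, adjusted p = 8.88e-06). EIF5B, the GTPase of subunit joining, fell by 0.19, a call lost with library size only and without SCH replicate 3. EIF5, which triggers GTP hydrolysis on eIF2, gave -0.0009 (adjusted p = 0.991).

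The eIF2 complex carries the initiator tRNA, and its alpha subunit is the site at which stress kinases slow initiation. EIF2S1, the alpha subunit gene (chr14:67359997-67386516, plus strand, as in the deposited table), was at 255, 254 and 254 CPM with vehicle and at 204, 215 and 220.2 CPM with SCH. The groups did not overlap, and the fall was 0.26 on the log2 scale with an SE of 0.05 (edgeR adjusted p = 6.93e-05). The beta and gamma subunit genes EIF2S2 and EIF2S3 fell by 0.24 and 0.32, so that the log2 changes of the 3 subunits lay within 0.1 of each other. EIF2A and EIF2D, which can deliver tRNA in other ways, fell by 0.23 and 0.47, the call of EIF2A being lost with library size only and without SCH replicate 1. EIF2S3B, a near copy of EIF2S3, had at most 3.01 CPM in all samples and did not pass the threshold. Of the 5 genes for eIF2B, which recharges eIF2 with GTP, 4 were lowered, as were 5 of the 6 tested eIF2 genes (29.4% of all tested genes). Among the eIF2B genes, the largest fall was in EIF2B5, the catalytic subunit gene, from 128, 128 and 125 CPM to 94.7, 95.5 and 102 CPM (-0.38 ± 0.05, adjusted p = 1.12e-06). EIF2B1, EIF2B2 and EIF2B3 each fell by 0.18, but EIF2B3, whose groups overlapped, lost its call in 8 of 15 alternative fits, EIF2B2 in 7 (both with DESeq2 and limma) and EIF2B1 in 1 (library size only), whereas EIF2B4 gave -0.08 (adjusted p = 0.345). Other genes share 15.6%, 23.6% and 10.2% of the exonic bases of EIF2B1, EIF2B2 and EIF2B3.

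Nearly the whole of eIF3, the large scaffold on the small subunit, was lowered: 13 of 14 tested genes (29.4% of all tested genes were lowered), with a median of -0.35. EIF3H fell from 231, 225 and 229.8 CPM to 163, 166 and 166 CPM (-0.47 ± 0.05, edgeR adjusted p = 9.09e-09). EIF3B, a core subunit gene, fell from 663, 661 and 618 CPM to 509, 474.5 and 492 CPM (-0.40 ± 0.05, adjusted p = 1.72e-07). The smallest falls were in EIF3L and EIF3A, at 0.14 and 0.15, and that of EIF3L is uncertain, since 51.8% of its exonic bases are shared with other genes. The call of EIF3L was lost in 10 of 15 alternative fits, DESeq2 and limma included, that of EIF3A in 3, of EIF3C in 2 and of EIF3I in 1. In 12 of the 14 (85.7%) the groups did not overlap, against 62.4% of all tested genes. The exceptions were EIF3C and EIF3CL, a pair of near-identical copies between which reads can be split. EIF3CL had 300, 94 and 450 counts with vehicle and 870, 80 and 209 with SCH, and its log2 fold change ranged from -0.99 to 1.04 over the 15 alternative fits, with the call or the sign changed without SCH replicate 1, without SCH replicate 2 and without a filter on low counts. The fall of 0.48 in EIF3C is uncertain for the same reason. In FPKM, which divides by gene length, eIF3 genes other than this pair ranged from 27.0 (EIF3F) to 223 (EIF3I) in the vehicle mean.

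The cap-binding complex eIF4F was mixed, with 4 of 11 tested genes of eIF4F and its cofactors lowered and 7 not past the threshold. The 36.4% lowered is near the 29.4% of all tested genes, and the 36.4% changed is below their 58.7%. EIF4E, which binds the cap (chr4:98871684-98930637, minus strand), was at 82.8, 81.3 and 85.2 CPM with vehicle and 58.9, 62.4 and 69.0 CPM with SCH. Its highest SCH sample lay under its lowest vehicle sample (log2 fold change -0.39 ± 0.06, edgeR adjusted p = 8.58e-06). EIF4G1, the scaffold that joins the cap-binding protein to the helicase, was at 1215, 1233 and 1162 CPM with vehicle and at 1063, 918 and 913 CPM with SCH. The SCH samples were more spread than the vehicle samples and still lay below them (-0.32 ± 0.05, adjusted p = 2.08e-05). The helicase cofactors EIF4B and EIF4H fell by 0.36 and 0.40.

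The scaffold genes EIF4G2 and EIF4G3 gave -0.0091 and -0.11 (adjusted p = 0.880 and 0.0567). The groups of EIF4G3 did not overlap, and it passed as lowered in 3 of 15 alternative fits. The alternative cap-binding protein gene EIF4E2 gave 0.04 (adjusted p = 0.557), with 24.2% of its exonic bases shared with other genes. The helicase gene EIF4A2 was at 517, 517 and 537 CPM with vehicle and 536, 547 and 541 CPM with SCH (0.05 ± 0.04, adjusted p = 0.371). Its annotated mRNA begins with a pyrimidine run, but 17.9% of its exonic bases are shared with other genes, so its change is uncertain. EIF4A3, a helicase of the exon junction complex, gave 0.03. With library size only, which moved the median of all genes up, EIF4A2, EIF4A3 and EIF4E2 passed as raised. EIF4A1, the other eIF4F helicase gene, had only 163, 116 and 91 counts with vehicle and 168, 165 and 125 with SCH, or 8.36, 6.46 and 5.12 CPM and 9.63, 8.86 and 6.57 CPM. Its groups overlapped (0.32 ± 0.16, adjusted p = 0.0940). Other genes share 48.6% of the exonic bases of EIF4A1, so its level and change are uncertain. The call also moved with the settings: EIF4A1 passed in 5 of 15 alternative fits. It passed without vehicle replicate 1 (0.53, adjusted p = 0.0112) and without SCH replicate 3 (0.48, adjusted p = 0.0170). The others were library size only (0.42, adjusted p = 0.0282), no filter on low counts (0.34, adjusted p = 0.0416) and the replicate number as a block.

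The repressors that hold eIF4E moved in opposite directions. EIF4EBP1, released from eIF4E when mTORC1 phosphorylates it, fell from 151, 162 and 131 CPM to 86.3, 95.4 and 98.5 CPM (-0.67 ± 0.07, edgeR adjusted p = 1.08e-08). Its paralog EIF4EBP2 rose from 117, 118 and 127 CPM to 174, 186 and 180.4 CPM. That was the largest rise among the factor genes that changed (0.58 ± 0.05, edgeR adjusted p = 1.50e-09), and the lowest SCH sample was well above the highest vehicle sample. Per gene length, EIF4EBP1 remained the more abundant of the pair, at 134 ± 14.5 FPKM against 16.1 ± 0.721 with vehicle and 84.5 ± 5.47 against 24.1 ± 0.710 with SCH (SD, n = 3). EIF4ENIF1, which shuttles eIF4E into the nucleus, gave -0.19 (adjusted p = 0.118), and passed as lowered without vehicle replicate 2 (adjusted p = 0.0459). EIF4EBP3 had a mean of 3 counts and was not tested.

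**Figure D3:**
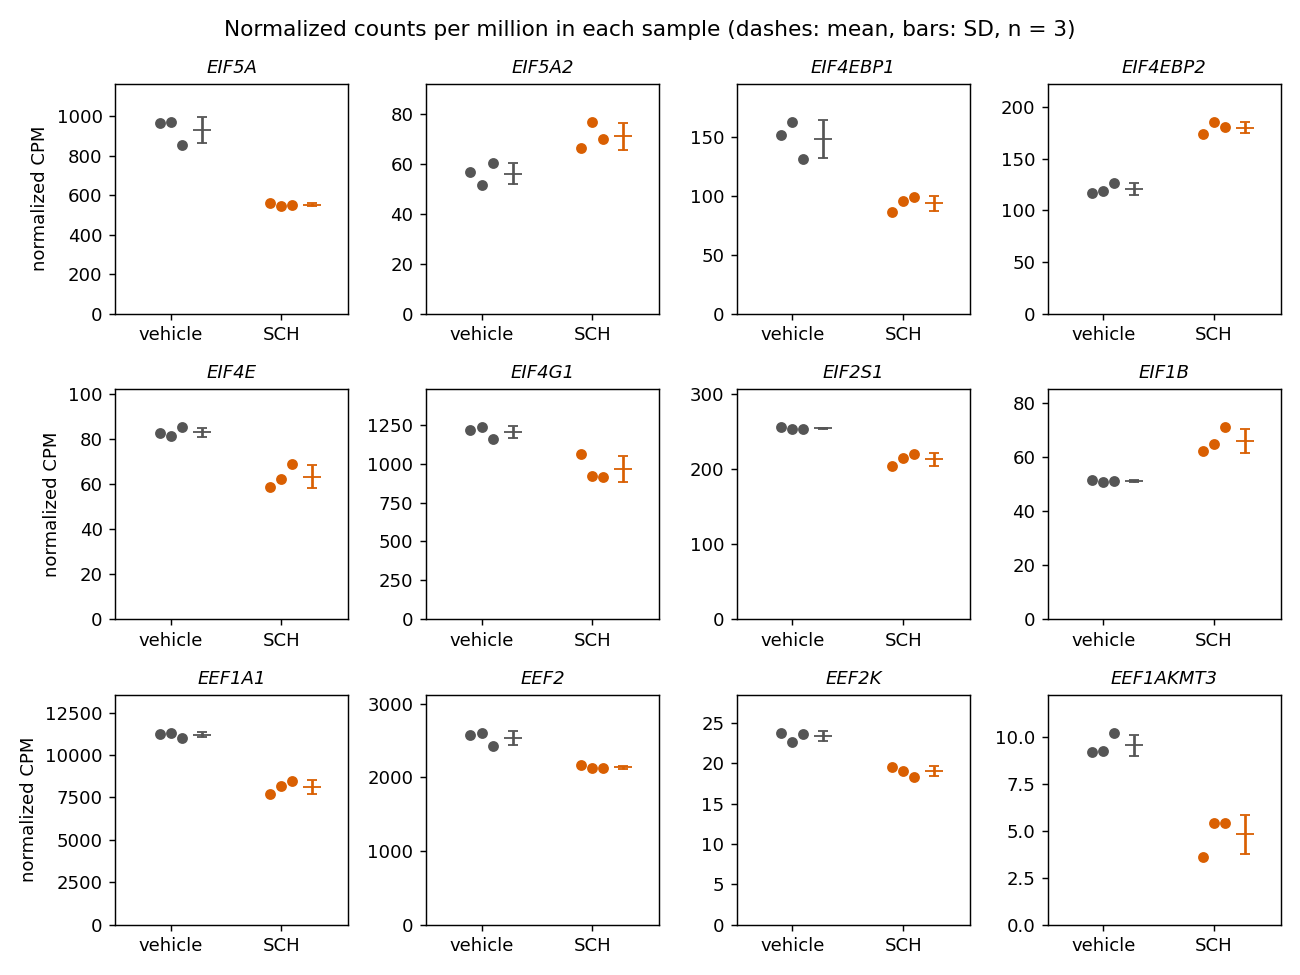
Normalized CPM (y axis, from 0) of 12 factor genes in each of the 3 vehicle and 3 SCH samples (points), with the mean and SD beside them. EIF5A2, EIF4EBP2 and EIF1B are higher with SCH and the other 9 are lower. The groups do not overlap in any of the 12, where 62.4% of all tested genes did not overlap. This in part reflects the choice of genes. The largest rises and falls were taken only from genes with separate groups, and EIF4A1, whose groups overlapped, is not drawn.

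Among the larger falls were those of eIF5A, the factor that eases ribosomes through difficult peptide bonds and carries the amino acid hypusine. EIF5A (chr17:7306999-7312463, plus strand) was at 967, 972 and 853 CPM with vehicle and at 561, 544 and 553 CPM with SCH. The mean with SCH was 0.594 times that with vehicle (log2 fold change -0.75 ± 0.05, edgeR adjusted p = 1.35e-11). EIF5AL1, an intronless near copy on chromosome 10 that can take reads of EIF5A, was at 27.8, 27.1 and 29.9 CPM and then at 12.5, 15 and 14.7 CPM. Its log2 fold change of -1.01 ± 0.09 (edgeR adjusted p = 1.0e-09) is thus uncertain as a change of its own. The paralog EIF5A2 moved up, from 56.6, 51.6 and 60.2 CPM to 66.3, 76.8 and 69.9 CPM (0.34 ± 0.07, adjusted p = 1.40e-04). EIF6, which keeps the large subunit from joining too early, fell from 337, 366 and 323 CPM to 213, 229 and 236 CPM (-0.60 ± 0.05, adjusted p = 1.64e-09), and 17.4% of its exonic bases are shared with other genes.

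All 6 tested genes of the elongation factor group were lowered, by 0.23 to 0.58, and none of the 6 overlapped between groups, where 29.4% of all tested genes were lowered and 62.4% did not overlap. EEF1A1 delivers aminoacyl-tRNA and was the most abundant of the factor mRNAs, at 1816 ± 25.0 FPKM with vehicle and 1325 ± 62.4 FPKM with SCH. In CPM it was at 11224, 11295 and 11015 with vehicle and 7676, 8176 and 8492 with SCH (-0.46 ± 0.05, edgeR adjusted p = 9.55e-09). EEF2, the translocase, was next at 608 ± 23.4 FPKM, with 2574, 2602 and 2424 CPM against 2164, 2131 and 2125 CPM. Its fall of 0.24 (SE 0.04, adjusted p = 6.29e-05) was smaller than that of EEF1A1 in the fitted values. EEF1B2 and EEF1D, the exchange factors that reload eEF1A with GTP, fell by 0.58 and 0.43, with 17.4% and 34.0% of their exonic bases shared with other genes. EEF1A2, the paralog typical of muscle and neurons, had 5.18, 6.57 and 5.23 CPM with vehicle and 3.84, 4.29 and 3.21 CPM with SCH (-0.58 ± 0.17, adjusted p = 0.00435). EEF1E1, a scaffold protein of the tRNA synthetase complex (18.7% shared), fell by 0.23, and lost its call in 6 of 15 alternative fits, DESeq2 included, so that 5 of the 6 were lowered there. The remaining subunit gene, EEF1G, was listed at 0 counts in every sample. Of its exonic bases, 99.9% are shared on the same strand with the gene AP002990.1, so the value says nothing of how much EEF1G mRNA was there.

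Enzymes that modify the elongation factors were low in abundance, at no more than 5.49 FPKM in the vehicle mean, and 5 of 6 tested genes were lowered (29.4% of all tested genes). EEF2K, the kinase that inactivates eEF2, was at 23.8, 22.7 and 23.7 CPM with vehicle and 19.6, 19.1 and 18.4 CPM with SCH. The groups were separate (-0.30 ± 0.08, edgeR adjusted p = 0.00261). EEF1AKMT3, a lysine methyltransferase of eEF1A, was at 9.23, 9.25 and 10.2 CPM and then at 3.61, 5.42 and 5.42 CPM (-0.98 ± 0.14, adjusted p = 3.54e-06). EEF1AKMT2, another such enzyme, was at 8.77, 9.41 and 10.5 CPM and then at 4.47, 7.19 and 5.00 CPM (-0.78 ± 0.15, adjusted p = 1.09e-04). EEF1AKMT4 was at 9.13, 12 and 8.77 CPM and then at 6.08, 6.55 and 5.78 CPM (-0.70 ± 0.14, adjusted p = 1.15e-04). Other genes share 19.1%, 14.9% and 46.8% of the exonic bases of these 3, in the same order. EEF2KMT, which methylates eEF2 and shares 29.3% of its exonic bases with ALG1, fell by 0.60, whereas EEF1AKMT1 gave 0.05 (adjusted p = 0.750).

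In 21 of the 67 genes more than 10% of the exonic bases were shared with another gene. Without them, in a comparison chosen after seeing the data, 44 genes were tested. Of these, 29 were lowered (65.9%) and 5 raised (11.4%), with a median of -0.28. Among all tested genes 29.4% were lowered and 29.3% raised, with a median of -0.0034. The 6 genes that were not tested were EEF1G, EIF4EBP3, EIF4E1B, EIF1AY and the read-through genes EEF1AKMT4-ECE2 and EEF1E1-BLOC1S5.

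To set paralogs and partners side by side, the ratio of FPKM values was formed within each sample for 10 pairs. In 8 of the 10 the groups did not overlap, and in all 8 the ratio was lower with SCH. Among single tested genes 62.4% did not overlap, and ratios of other genes were not formed for comparison. The pairs are not independent, since EIF4E, EIF4G1 and EIF4EBP1 recur among them. Except for EIF1 over EIF1B and EIF4EBP1 over EIF4E, these 8 set a lowered gene over a gene not called lowered. Their shared direction thus largely restates the changes of single genes and the chosen order. With 3 samples against 3, the exact two-sided permutation test cannot go below p = 0.1, which these 8 reached (0.125 after Benjamini-Hochberg adjustment over the 10), so none could pass 0.05. EIF4EBP1 over EIF4EBP2 was 8.78, 9.28 and 6.97 with vehicle and 3.35, 3.48 and 3.69 with SCH. The balance of EIF5A over EIF5A2 went from 33.9, 37.4 and 28.2 to 16.8, 14.1 and 15.7. Both ratios thus fell by more than any of the vehicle samples differed from each other.

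Changes were smaller for the other pairs. The ratio of EIF4EBP1 to EIF4E, a repressor to its target, was 24.0, 26.2 and 20.1 with vehicle and 19.2, 20.1 and 18.7 with SCH, with a narrow gap between groups. EIF4E over EIF4E2 was 0.764, 0.736 and 0.813 against 0.512, 0.571 and 0.632. For EIF4G1 over EIF4G2 the values were 0.997, 1.02 and 0.891 against 0.870, 0.730 and 0.745. EIF1 over EIF1B went from 8.46 ± 0.168 to 7.09 ± 0.254, EIF4G1 over EIF4G3 from 9.03 ± 0.451 to 7.81 ± 0.465, and EIF4E over EIF4E3, a gene at 0.820 to 1.66 CPM, from 64.1 ± 15.8 to 34.8 ± 6.82 (mean ± SD, n = 3). EEF1A1 over EEF1A2 overlapped between groups (exact permutation p = 0.6), as did EIF4A1 over EIF4A2 (exact permutation p = 0.4).

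**Figure D4:**
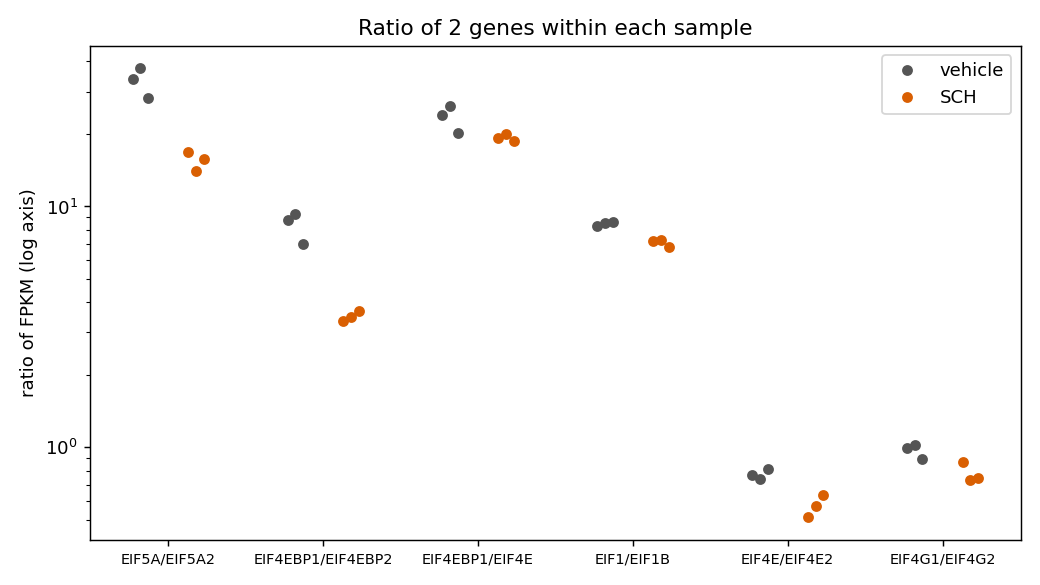
Ratio of FPKM values (y axis, log scale) for 6 pairs of factor genes in each of the 3 vehicle and 3 SCH samples. EIF5A over EIF5A2 and EIF4EBP1 over EIF4EBP2 show the widest gaps between the groups, and EIF4EBP1 over EIF4E the narrowest of the first 3 pairs.

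Among other genes of the translation machinery, the cytosolic ribosomal protein genes moved the same way, with 74 of 84 tested genes lowered (88.1%, against 29.4% of all tested genes), none raised and a median of -0.46. Their share of all counts was 6.37% ± 0.160 with vehicle and 4.88% ± 0.118 with SCH (SD, n = 3). All 9 other mRNAs listed for a TOP tract were lowered, with a median of -0.52. They include NPM1, a nucleolar chaperone (-0.78), RACK1, a protein of the small subunit (-0.74), and GAS5, a noncoding host of small nucleolar RNAs (-0.60). Of 136 pseudogenes named after a factor gene, 17 were tested, 11 of them lowered (64.7%) and none raised, and reads of a parent gene can be counted there.

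Genes upstream of the factors were examined next. Of 25 genes for mTORC1 and MNK signaling, 11 were raised and 7 lowered (72.0% changed, 44.0% raised and 28% lowered, against 58.7%, 29.3% and 29.4% of all tested genes), with a median of 0.12. LARP1, which binds TOP mRNAs, fell from 468.5 ± 7.59 to 263 ± 5.00 CPM (-0.83 ± 0.05, edgeR adjusted p = 3.54e-13), and RPTOR, the substrate-binding subunit of mTORC1, from 103 ± 2.40 to 60.6 ± 5.37 CPM (-0.77 ± 0.06, adjusted p = 2.66e-10). DDIT4, an inhibitor of mTORC1, fell by 0.48, a value that is uncertain with 41.2% of its exonic bases shared. In the same list PDCD4, an inhibitor of the eIF4A helicase, rose from 28.4 ± 1.31 to 44.5 ± 1.96 CPM (0.65 ± 0.07, adjusted p = 2.78e-08). TBC1D7, a subunit of the TSC complex, and RRAGD, a GTPase of amino acid sensing, rose by 0.60 and 0.57. Other genes share 29.5% of the exonic bases of PDCD4 and 15.3% of those of TBC1D7.

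Of 16 genes for eIF2α kinases, phosphatases and their regulators, 4 were raised and 6 lowered (62.5% changed, close to the 58.7% of all tested genes). ATF4, the transcription factor translated when eIF2α is phosphorylated, fell from 581 ± 2.12 to 395 ± 11.1 CPM (-0.56 ± 0.05, edgeR adjusted p = 2.73e-10), and its target TRIB3 from 91.6 ± 1.72 to 55.7 ± 2.05 CPM (-0.72 ± 0.06, adjusted p = 1.61e-10). IMPACT, a regulator of the kinase GCN2, fell by 0.38. The phosphatase subunit gene PPP1R15A rose from 408 ± 29.6 to 518 ± 38.9 CPM (0.34 ± 0.06, adjusted p = 1.76e-05), as did DDIT3 by 0.29 and the chaperone gene DNAJC3 by 0.27. Thus ATF4 and TRIB3 moved opposite to DDIT3 and PPP1R15A, and 39.6% of the exonic bases of DDIT3 are shared with another gene.

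Partners of initiation at the cap and start codon had 11 of 21 genes lowered (52.4%) and 5 raised (23.8%), or 76.2% changed. Of all tested genes, 29.4% were lowered, 29.3% raised and 58.7% changed. CTIF, which acts with the nuclear cap-binding complex, fell by 1.08, and BZW2, a mimic of eIF5, fell by 0.68. The helicase gene DHX29 and PAIP2, an inhibitor of the poly(A)-binding protein, both rose by 0.37, and NCBP2 rose by 0.26. Of the exonic bases of PAIP2, 21% are shared. Termination, recycling and rescue had 3 of 12 tested genes lowered and 4 raised (58.3% changed, close to the 58.7% of all tested genes), with ABCE1, the recycling ATPase, falling by 0.41, and the release factor genes GSPT1 and ETF1 by 0.28 and 0.24. LTN1, GTPBP2 and GTPBP1, of ribosome rescue, rose by 0.24, 0.17 and 0.16. In the mitochondrial factors, 5 of 11 were lowered (45.5%) and 1 raised (9.09%), against 29.4% and 29.3% of all tested genes. The 54.5% changed was near the 58.7% of all tested genes. MRRF, TSFM and GFM1 fell by 0.69, 0.45 and 0.32, whereas GFM2 rose by 0.28. Of the exonic bases of TSFM 28.5% are shared, and of those of GFM2 18.8%.

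Of 11 enzymes that modify eIF5A and the elongation factors, 5 were lowered and 1 raised (54.5% changed, below the 58.7% of all tested genes). DHPS and DOHH, which make the hypusine of eIF5A, gave -0.26 and -0.13 (edgeR adjusted p = 0.475 and 0.112), but DHPS had a mean of only 30 counts and 41.8% of its exonic bases are shared, so its value is uninformative. DPH2, DPH5 and DPH7, which build the diphthamide residue of eEF2, fell by 0.54, 0.53 and 0.48, and DNAJC24, of the same route, rose by 0.28. In polyamine synthesis, which provides the spermidine for hypusine, 4 of 9 genes were lowered (44.4%) and 3 raised (33.3%), or 77.8% changed. Of all tested genes, 29.4% were lowered, 29.3% raised and 58.7% changed. SMS, SRM (spermidine synthase) and AMD1 fell by 0.76, 0.75 and 0.47. SAT1, which breaks polyamines down, rose from 36.3 ± 1.75 to 67.1 ± 3.60 CPM (0.89 ± 0.07, edgeR adjusted p = 5.26e-11), and ARG2 and ODC1, the entry enzymes, rose by 0.38 and 0.23, the former uncertain with 37.4% of its exonic bases shared.

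**Figure D5:**
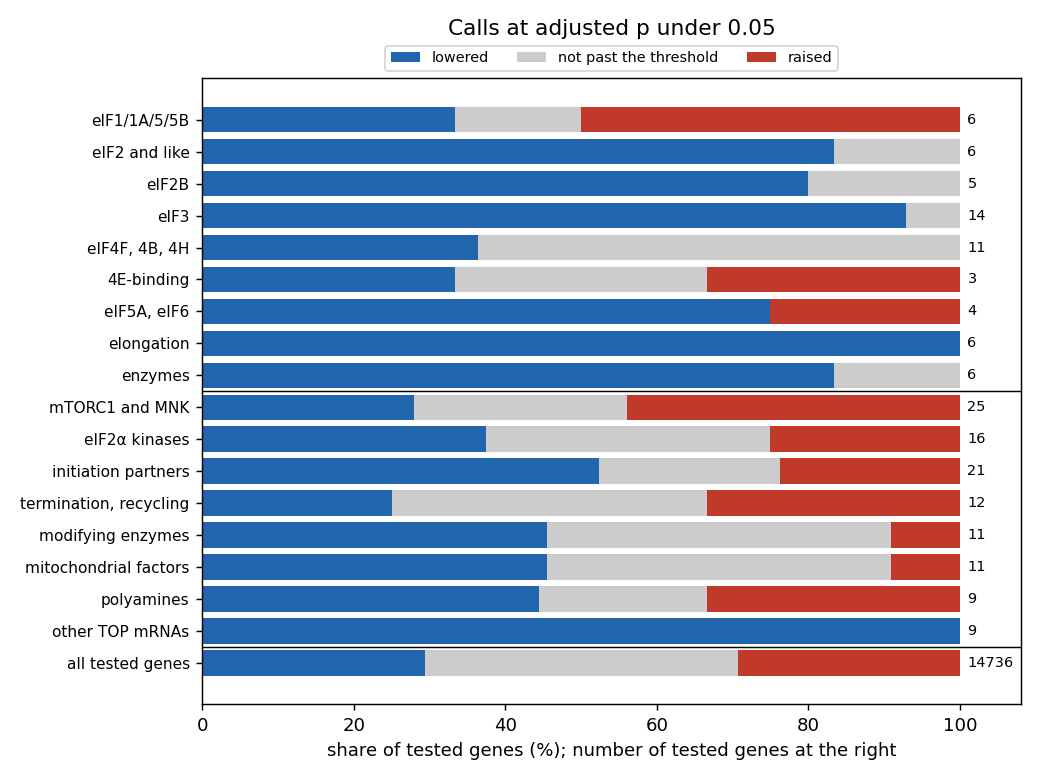
Share of tested genes (x axis, %) lowered, not past the threshold or raised for the role groups of factor genes (upper block), related gene lists (middle block) and all 14736 tested genes (bottom bar), with the number of tested genes at the right. Elongation factors and other TOP mRNAs are lowered throughout, eIF3 in 13 of 14 genes, and the mTORC1 and MNK list holds more raised (11) than lowered (7) genes.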

How the data were processed

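RNA from 3 vehicle and 3 SCH samples was converted to libraries of poly-T purified mRNA and sequenced by Novogene (Illumina HiSeq). The files deposited by the authors hold unnormalized counts for each gene and FPKM, in which counts were scaled by gene length and library size. The submitters' processing notes list CASAVA 1.8, HISAT2 2.0.5, featureCounts 1.5.0-p3, DESeq2 1.20.0 and GRCh38; the strand setting of the counting is not given in the sources used here, so reads in exons shared between genes cannot be assigned. All 58735 gene identifiers were found in GENCODE 29, whose exons were used for sharing.

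Counts were tested in R 4.3.3 with edgeR 4.0.16 (TMM factors, filterByExpr, quasi-likelihood test of SCH against vehicle without covariates) over 14736 genes. The common biological coefficient of variation was 5.17%. The SE was taken as the size of the log2 fold change over the root of F. A floor of 3 counts corresponds to 0.154 to 0.172 CPM per sample and covers counting error only. No pair of libraries in a group was a copy (chi-square per degree of freedom 2.12 to 5.75). Simulated data of 14553 genes held 66 genes changed by 0.5, 64 by 1 and 70 by 1.5 on the log2 scale, the rest being unchanged. There, 80.3% of changes of 0.5 and 96.9% of changes of 1 were recovered, and 5.13% of calls were false. In the measured data 58.7% of tested genes were called, so the simulation does not give the error rate where most genes change.

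The members and lists were chosen with earlier results of these data known. Values in every sample were given for 9 factor genes fixed by role and for the 5 largest rises and 5 largest falls among called genes with 100 or more counts on average and separate groups, and other factor genes as examples of their role. Of each related list, up to 3 raised and 3 lowered genes with the largest change among called genes with 100 or more counts on average were named, and DHPS and DOHH were added after their values were seen. Alternatives included DESeq2 1.42.0, limma 3.58.1 on log2(FPKM + 1) and log2(FPKM + 0.1), other scalings, filters and thresholds, the replicate number as a block and each sample left out. Promoter windows came from RefSeq. Figures were made with Python 3.11.15.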

Additional observations from a re-analysis of the deposited data

How the results depend on the processing

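Of the 48 changed factor genes, 36 kept their call in all 15 alternative fits, 12 lost it in at least 1, and none changed sign. The median log2 fold change of the factor genes, -0.27, became -0.17 with library size only, -0.24 with limma on log2(FPKM + 1), -0.25 without a filter on low counts, -0.26 with DESeq2 and -0.30 with upper quartile scaling. The count of raised factor genes, 5, became 9 with library size only and 3 at an adjusted p under 0.01. With an absolute log2 fold change of at least 0.5, 3943 of all tested genes and 11 factor genes were called, 1 raised and 10 lowered. Library size only gave 5519 raised and 3295 lowered genes in all. Leaving out each sample in turn gave 44 to 46 called factor genes and, for the log2 difference in the ratio of EEF1A1 to EEF1A2, -0.0268 (without SCH replicate 3, a reversed sign) to 0.21, against 0.12 with all samples. The cause of these differences was not tested.

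Samples share replicate numbers across groups. The deviations of same-numbered samples from their group means had correlations of 0.0715, -0.0351 and 0.0571. For differently numbered samples the correlations ran from -0.14 to 0.0945. With 3 samples in each group, such values cannot tell whether the numbers mark pairs. With the replicate block, 8705 genes and 48 factor genes (5 raised, 43 lowered; median -0.27) were called, where EIF1 was lost (adjusted p = 0.0516) and EIF4A1 gained as raised (0.33, adjusted p = 0.0256). The ratios were not blocked.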
